A study of Homo sapiens with 6 samples.

Results

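The 10 genes described here encode the kinases and phosphatases at the core of the DNA damage and replication checkpoint, namely *ATM*, *ATR*, *CHEK1*, *CHEK2*, *TLK1*, *TLK2*, *WEE1*, *CDC25A*, *CDC25B* and *CDC25C*. They were taken by gene symbol, as a set proposed when earlier results of these data were known, from a table of RNA-seq counts over 63677 genes, and all 10 were among the 12507 genes with enough counts to be tested. After depletion of *SNHG15*, a long noncoding RNA, 1 of the 10 genes changed beyond the threshold, against 5.36% of all genes tested. *TLK1* rose 2.32-fold (95% interval 1.51 to 3.57), from 4.09 ± 1.69 to 8.64 ± 2.0 CPM (SD, n = 3 per condition), while the other 9 did not pass the test. The call on *TLK1* held in only 3 of 6 fits with 1 library left out. CPM is the number of counts per 1000000 counts of a library after scaling.

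The RNA came from LoVo, an established human colorectal cancer cell line. One condition, called siRNA here, received a combination of both *SNHG15* siRNAs and the other, called scramble, received a negative control siRNA. In each condition the final siRNA concentration was 25 nM, a lipid reagent (Lipofectamine) carried it in and RNA was taken after 48 h. Each condition had 3 libraries, sequenced as 75 bp paired reads, and the labels name no DNA-damaging agent or other drug in either condition. The study's methods call the libraries of a condition biological replicates, and the labels do not say whether each came from a culture of its own. The p-values measure the spread between these libraries.

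In dividing cells *ATM* responds to broken DNA and *ATR* to stalled replication forks, and they activate the effector kinases CHK2 (*CHEK2*) and CHK1 (*CHEK1*). The effector kinases restrain the CDC25 phosphatases, which remove inhibitory phosphate groups from the cyclin-dependent kinases, while *WEE1* puts such a group on. The Tousled-like kinases *TLK1* and *TLK2* phosphorylate the histone chaperone ASF1 during DNA replication and are inhibited through CHK1 when DNA is damaged. Much of this circuit is run by phosphorylation and protein turnover, which RNA counts do not measure.

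The libraries held between 3446922 and 10256710 counts, with the third scramble library the shallowest. *SNHG15* was at 276 ± 14.3 CPM in the scramble and 82.5 ± 5.0 CPM in the siRNA libraries (SD, n = 3), which left 29.9% of its level. Of the 12507 genes tested, 392 rose and 279 fell at an adjusted p under 0.05 (edgeR, Benjamini-Hochberg over all genes tested), which is 5.36% of the genes in either direction, 3.13% higher and 2.23% lower. With upper-quartile factors 515 rose and 230 fell, and with an offset for GC content 430 rose and 522 fell. The total of 671 depended on single libraries and was 199 without the first, 139 without the second and 266 without the third scramble library, and 356 without the second siRNA library. Of the epithelial markers, *KRT8*, *KRT18* and *CDX2* were present, with *KRT8* at 41.6 to 68.3 CPM and *CDX2* at 25.4 to 29.0 CPM. *EPCAM*, a surface protein of epithelial cells, had 1 count in each of 2 libraries and 0 in the other 4, and *VIL1*, the microvillus protein villin, had 0 in all 6, so that these 2 markers of the labelled tissue were at or near 0. The identity of the line was not tested.

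Per kilobase of the canonical transcript, which allows levels of different genes to be set side by side, *CDC25B* was the most abundant of the 10 genes in the scramble libraries, at 35.5 CPM per kb. *WEE1* followed at 13.4, *CDC25A* at 12.3, *CHEK1* at 9.29, *CHEK2* at 7.26 and *CDC25C* at 5.03 CPM per kb. *TLK2* stood at 3.60, *ATR* at 1.36, *ATM* at 0.878 and *TLK1*, the lowest, at 0.715 CPM per kb. Neighbours in this order did not overlap over their 3 libraries, except *WEE1* with *CDC25A*, *CDC25C* with *TLK2*, and *ATM* with *TLK1*. In the siRNA libraries *TLK1* stood at 1.51 CPM per kb (1.11 to 1.72), where it overlapped *ATR* (1.32 to 1.53) and lay just above *ATM* (0.805 to 1.10). *CDC25A* (9.06 to 13.6) and *WEE1* (8.39 to 12.4) changed places, with overlapping ranges, and the order of the other genes was the same. The level per kilobase rests on 1 transcript for each gene and on counts over all of its exons.

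**Figure D1:**
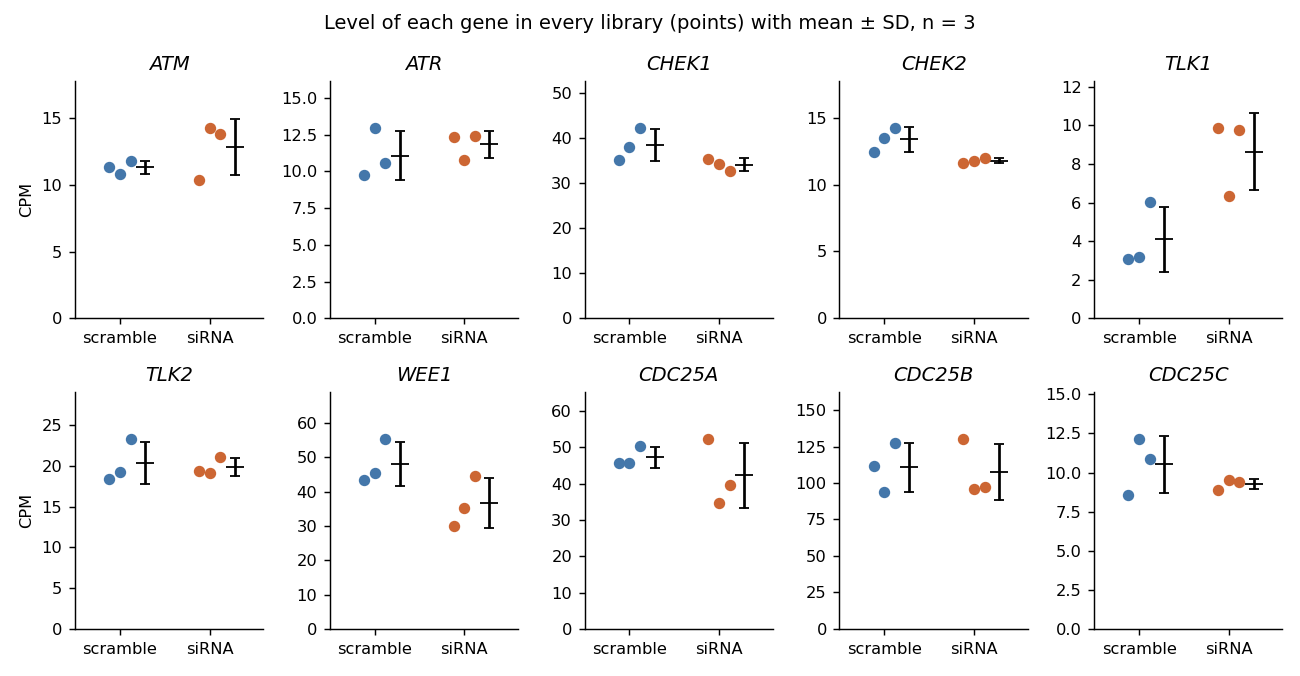
Level of each of the 10 genes in CPM (y axis, from 0) in the 3 scramble (blue) and 3 siRNA (orange) libraries, with the mean ± SD beside them. All 3 siRNA libraries lie above all 3 scramble libraries for *TLK1* and below them for *CHEK2*, and the conditions overlap for the other 8 genes.

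*ATM* (ENSG00000149311, chr11:108093771-108239829, plus strand, 63 exons in its canonical transcript) is the apical kinase for DNA breaks. It was measured at 11.4, 10.8 and 11.8 CPM in the scramble libraries and at 10.4, 14.2 and 13.9 CPM in the siRNA libraries. The first siRNA library was the lowest and the other two the highest of the 6, so the conditions overlapped. The log2 fold change was 0.19 (95% interval -0.20 to 0.58, edgeR adjusted p = 0.579). *ATR* (ENSG00000175054, chr3:142167849-142297575, minus strand, 47 exons) is the apical kinase for stalled forks and lay at 9.73, 12.9 and 10.6 CPM against 12.3, 10.8 and 12.5 CPM. Its highest value was in a scramble library, and its log2 fold change was 0.09 (95% interval -0.31 to 0.48, adjusted p = 0.815). The ratio of *ATM* to *ATR* was 0.838 to 1.17 in the scramble and 0.843 to 1.32 in the siRNA libraries, so both kinases were read about equally often although the *ATM* transcript is the longer. In exons *ATM* shares 124 bp with *C11orf65* and 102 bp with a *Y_RNA* gene, both on the opposite strand. *ATR* shares 2048 bp with the pseudogene *EIF2AK1P1* on the opposite strand and 497 bp with a noncoding gene on its own strand.

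*CHEK1* (ENSG00000149554, chr11:125495058-125546150, plus strand, 13 exons) encodes CHK1, the effector kinase downstream of *ATR*. Its level was 35.2, 37.9 and 42.0 CPM in the scramble and 35.4, 34.1 and 32.7 CPM in the siRNA libraries. The third scramble library was the highest and the first siRNA library passed the first scramble library by a narrow margin. The log2 fold change was -0.16 (95% interval -0.46 to 0.13, edgeR adjusted p = 0.513). *CHEK2* (ENSG00000183765, chr22:29083731-29138410, minus strand, 15 exons) encodes CHK2, the effector kinase downstream of *ATM*. It lay at 12.4, 13.5 and 14.2 CPM against 11.6, 11.8 and 11.98 CPM, with each siRNA library below each scramble library. The difference was small, at -0.17 on the log2 scale (95% interval -0.52 to 0.18), and did not pass the test (adjusted p = 0.575). The counting intervals of its libraries overlapped, reaching for example from 10.2 to 15.02 CPM in the first scramble and from 9.77 to 14.5 CPM in the third siRNA library (exact Poisson, 95%, counting error only). The *CHEK1* to *CHEK2* ratio overlapped between conditions, at 2.80 to 2.96 in the scramble and 2.73 to 3.04 in the siRNA libraries. *CHEK2* shares 293 bp of exon with *HSCB* on the opposite strand. *CHEK1* shares 751 bp with a noncoding gene on the opposite strand and 53 bp with *STT3A* on its own strand.

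*TLK1* (ENSG00000198586) lies on the minus strand at chr2:171847333-172087824, and its canonical transcript has 21 exons over 5723 bases. The table held 26, 32 and 20 *TLK1* counts under scramble against 71, 44 and 83 under siRNA, so the result rests on few reads. Scaled, these are 3.05, 3.18 and 6.05 CPM against 9.84, 6.33 and 9.75 CPM. Every siRNA library lay above every scramble library, but the third scramble library, which was the shallowest, came close to the second siRNA library. The counting interval of that scramble library ran from 3.69 to 9.34 CPM and that of the siRNA library from 4.60 to 8.50 CPM. *TLK1* rose, with a log2 fold change of 1.21 (95% interval 0.59 to 1.84, standard error 0.29, edgeR adjusted p = 0.0287), and DESeq2 gave 1.17 with an adjusted p of 0.0221. In RNA from whole cultures, more RNA per cell and more cells of a kind that holds more of it cannot be told apart.

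The call on *TLK1* depended on single libraries. It was lost without the first scramble library (log2 fold change 1.05, edgeR adjusted p = 0.138), without the second scramble library (1.08, adjusted p = 0.152) and without the third siRNA library (1.12, adjusted p = 0.0612). It held without the third scramble library (1.47, adjusted p = 0.0331), without the first siRNA library (1.13, adjusted p = 0.0391) and without the second siRNA library (1.39, adjusted p = 0.0283). With all 6 libraries it passed under each of 9 other settings of scaling, filter, offset, block and tool, at 1.09 to 1.26. Among the 2907 tested genes whose mean level was within 2-fold of that of *TLK1*, 4.58% rose and the median log2 fold change was 0.11, against 3.13% and 0.00 over all genes tested. Of the nearest tested genes on chromosome 2, none passed the test. *GAD1*, before *TLK1* in chromosome order, was at 0.44 (adjusted p = 0.125), *GORASP2* at -0.22 (adjusted p = 0.257), *METTL8*, beyond it, at -0.03 (adjusted p = 0.929) and *DCAF17* at 0.00 (adjusted p = 0.999).

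**Figure D2:**
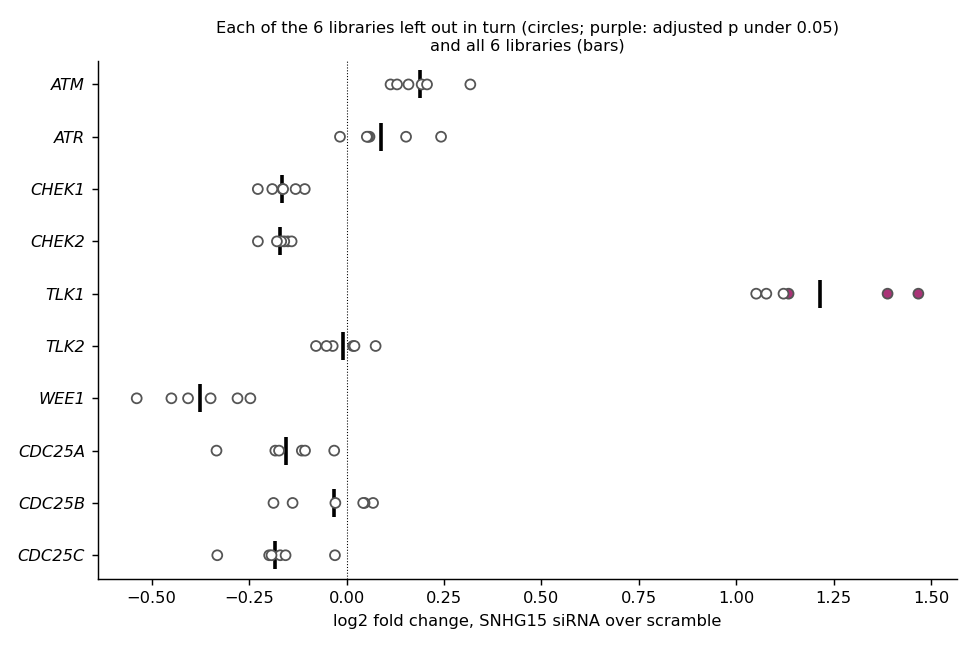
Log2 fold change of each of the 10 genes (siRNA over scramble, x axis) with each library left out in turn (circles, filled where the edgeR adjusted p was under 0.05) and with all 6 libraries (black bars). *TLK1* stays between 1.05 and 1.47 and passes in 3 of 6 fits, and no other gene passes in any of them.

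*TLK2* (ENSG00000146872, chr17:60536019-60692842, plus strand, 22 exons) is the close relative of *TLK1*, with 76.5% identical bases over the aligned coding sequence. It was at 18.4, 19.3 and 23.3 CPM in the scramble and 19.4, 19.1 and 21.1 CPM in the siRNA libraries. The conditions overlapped, and the log2 fold change was -0.01 (95% interval -0.34 to 0.32, edgeR adjusted p = 0.982). The ratio of *TLK1* to *TLK2* was 0.165 to 0.260 in the scramble and 0.331 to 0.507 in the siRNA libraries, with a difference of 1.15 between the mean log2 ratios. Each siRNA library thus held more *TLK1* per *TLK2* than each scramble library. This was the only 1 of 7 gene pairs in which the conditions did not overlap, and no share over all gene pairs was worked out. With *TLK2* nearly level, the ratio restates the values of *TLK1* and adds no support of its own. The pair ratios are given as values, without a test.

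Reads of the relatives can be told apart by sequence. No stretch of 75 bases, the length of a read, was shared exactly by the canonical transcripts of *TLK1* and *TLK2*. Near matches across exon junctions or outside coding sequence were not searched for. Of the coding stretches of 75 bases within 1 exon of each gene, the most alike are shown. They lie in exon 19 of 21 of *TLK1*, at chr2:171854259-171854333 on the minus strand, and exon 20 of 22 of *TLK2*, at chr17:60683491-60683565 on the plus strand (GRCh37, in the direction of transcription, with the bases that differ in capitals), and they differ at 10 of 75 bases.
TLK1: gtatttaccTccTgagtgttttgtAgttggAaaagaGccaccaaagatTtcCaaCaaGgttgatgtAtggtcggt
TLK2: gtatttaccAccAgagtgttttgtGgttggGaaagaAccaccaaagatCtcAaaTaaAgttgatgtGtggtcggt

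The pseudogenes differ in this respect. Of the 75-base stretches of the *TLK2* transcript, 1334 of 5566 (24%) occur exactly in *TLK2P1*, whereas 12 of 5649 (0.212%) of *TLK1* occur in *TLK1P1*. *TLK2P1* was listed with 12, 12 and 3 counts in the scramble and 13, 7 and 19 in the siRNA libraries, which is 3.90% to 10.6% of the *TLK2* count. With those counts added, *TLK2* would stand at 19.8, 20.5 and 24.2 CPM against 21.2, 20.1 and 23.4 CPM, which still overlap. *TLK1P1* held 0 to 7 counts per library, and with them added *TLK1* would stand at 3.52, 3.28 and 6.35 CPM against 10.8, 6.90 and 9.75 CPM, so that the conditions stay apart. How reads with several placements were counted is not given in the sources used here, and the *TLK2* level is uncertain for that reason. *TLK1* and *TLK2* share no exonic base with another annotated gene.

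**Figure D3:**
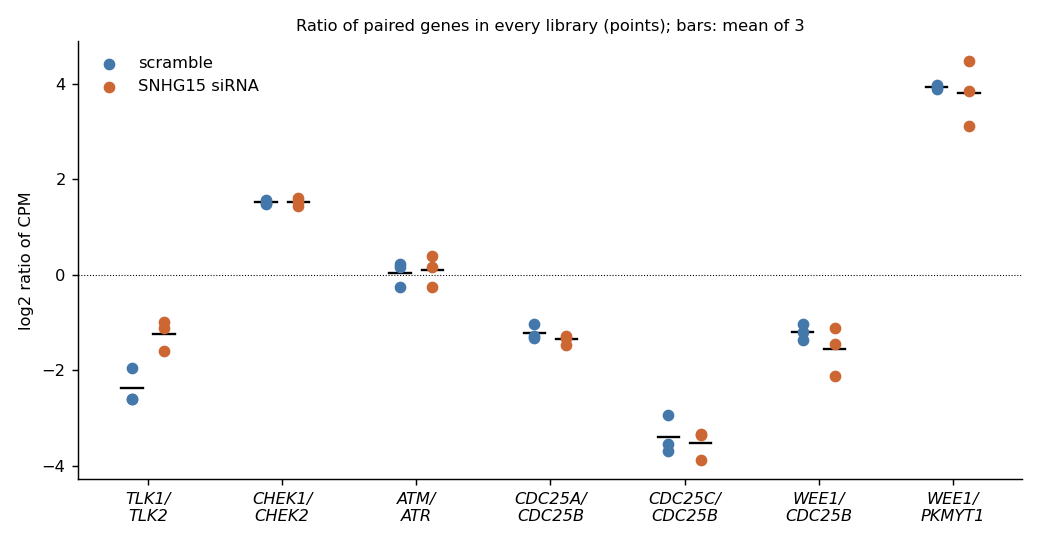
Log2 ratio of CPM (y axis) for 7 gene pairs in each scramble (blue) and siRNA (orange) library, with the mean of 3 as a bar. The *TLK1*/*TLK2* ratio lies between -2.60 and -1.94 in the scramble and between -1.60 and -0.98 in the siRNA libraries, and the other 6 pairs overlap.

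The genes whose level followed that of *TLK1* most closely over the 6 libraries were *SPRYD4* (Pearson r of log2 CPM 0.992), *ERBB3* (0.990), *LEPROTL1* (0.989), *ANG* (0.989) and *DACT3* (0.987). Of these, *ERBB3*, a receptor tyrosine kinase of the EGF receptor family, rose (log2 fold change 1.19, edgeR adjusted p = 0.0197), and *DACT3* rose (1.11, adjusted p = 0.0380). *SPRYD4* (0.30, adjusted p = 0.237), *LEPROTL1* (0.42, adjusted p = 0.0985) and *ANG*, which encodes angiogenin (0.71, adjusted p = 0.0597), did not pass. They are the highest of 12507 correlations over 6 points that fall into both conditions, and are given as a description.

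*WEE1* (ENSG00000166483, chr11:9595217-9615004, plus strand, 11 exons) encodes the kinase that holds *CDK1* inactive before mitosis. Its level was 43.4, 45.6 and 55.3 CPM in the scramble libraries and 30.1, 35.4 and 44.5 CPM in the siRNA libraries. The third siRNA library lay between the first and the second scramble library, and the first and second siRNA libraries lay below all 3 scramble libraries. The mean went from 48.1 ± 6.38 to 36.7 ± 7.30 CPM (SD, n = 3), a log2 fold change of -0.38 with a 95% interval of -0.74 to -0.01. *WEE1* and *TLK1* were the 2 of 10 genes with an unadjusted p under 0.05, which 22.5% of all genes tested had, and *WEE1* did not pass after adjustment (edgeR adjusted p = 0.205, DESeq2 adjusted p = 0.246). Exons of *WEE1* share 311 bp with *RN7SL56P* and 104 bp with a *snoU13* small RNA gene on the same strand. *PKMYT1*, the other kinase that inhibits *CDK1*, was low, at 2.0 to 3.63 CPM, and the ratio of *WEE1* to *PKMYT1* spread from 14.8 to 15.8 in the scramble and from 8.68 to 22.3 in the siRNA libraries.

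The CDC25 phosphatases oppose *WEE1*, with *CDC25A* acting from the start of S phase on and *CDC25B* and *CDC25C* chiefly at entry into mitosis. *CDC25A* (ENSG00000164045, chr3:48198636-48229907, minus strand, 15 exons) lay at 45.6, 45.7 and 50.5 CPM in the scramble and at 52.3, 34.8 and 39.7 CPM in the siRNA libraries. Its first siRNA library was the highest of the 6 and its other siRNA libraries the lowest, and the log2 fold change was -0.16 (95% interval -0.50 to 0.19, edgeR adjusted p = 0.610). *CDC25B* (ENSG00000101224, chr20:3767419-3786768, plus strand, 16 exons) lay at 111, 93.5 and 127 CPM against 130, 96.1 and 97.0 CPM. The first siRNA library was again the highest, and the log2 fold change was -0.03 (95% interval -0.37 to 0.30, adjusted p = 0.924). *CDC25C* (ENSG00000158402, chr5:137620958-137674044, minus strand, 14 exons), the least abundant of the 3, lay at 8.55, 12.1 and 10.9 CPM against 8.87, 9.49 and 9.40 CPM. Its lowest and its highest value were both in scramble libraries, and the log2 fold change was -0.18 (95% interval -0.60 to 0.23, adjusted p = 0.615). The balance of *WEE1* against *CDC25B*, as a ratio of CPM, was 0.389 to 0.487 in the scramble and 0.231 to 0.459 in the siRNA libraries, and the ratios of *CDC25A* to *CDC25B* and of *CDC25C* to *CDC25B* overlapped as well. *CDC25C* shares 293 bp of exon with *FAM53C* on the opposite strand.

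Over the 10 genes together, 1 rose and 0 fell, against 3.13% and 2.23% of all genes tested, and with DESeq2 it was also 1 of 10, against 5.80%. The conditions did not overlap in 2 of 10 genes (*TLK1* above, *CHEK2* below), a share of 20%, against 28.8% of all genes tested. In sign alone, 7 of the 10 log2 fold changes were below 0 and 3 above, and their median was -0.09 against 0.00. The intervals of the 9 genes that did not pass were narrow enough to leave out a change by 1 on the log2 scale in either direction, with the farthest ends at -0.74 for *WEE1* and 0.58 for *ATM*.

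**Figure D4:**
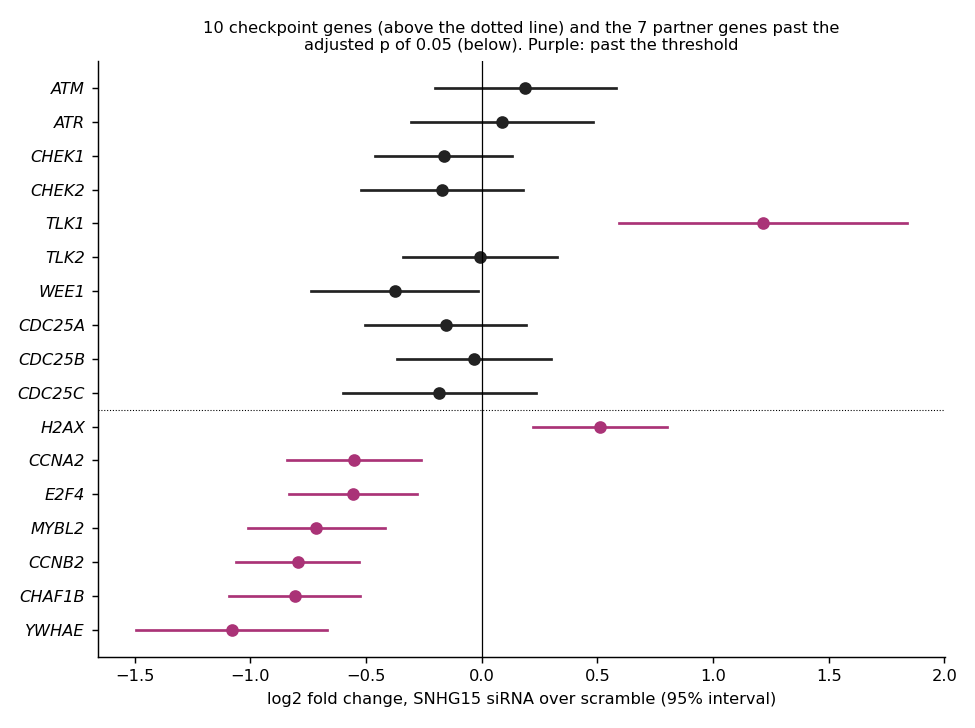
Log2 fold change with its 95% interval (x axis, siRNA over scramble) for the 10 genes, above the dotted line, and for the 7 partner genes past the adjusted p of 0.05, below it. Purple marks genes past the threshold, and of the 10 genes above the line only *TLK1*, at 1.21, is purple.

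The proteins that work with these enzymes were described through 10 lists of 72 genes, of which 71 were tested. The lists were chosen with earlier results of these data known, so their shares are not independent of those results. Of the 71, 1 gene rose and 6 fell, or 9.86% against 5.36% of all genes tested, and their median log2 fold change was -0.11 against 0.00. The conditions did not overlap for 30 of the 71 (42.3%, against 28.8%), and 25 of the 71 had an unadjusted p under 0.05, against 22.5% of all genes tested, the share to set beside such counts in the lists that follow. The number past the threshold was 4 without the first, 3 without the second and 4 without the third scramble library, and 3 without the second siRNA library. The genes that fell act in replication and the cell cycle (*CHAF1B*, *CCNA2*, *CCNB2*), in transcription (*E2F4*, *MYBL2*) and in binding phosphorylated proteins (*YWHAE*).

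Upstream of the kinases, 0 of 11 sensing and clamp genes passed the test, although 10 of 11 were below 0 and 3 had an unadjusted p under 0.05. DESeq2 also called 0 of them. The smallest p among them was that of *RHNO1*, a partner of the RAD9-HUS1-RAD1 clamp that loads at damaged DNA, with a log2 fold change of -0.45 (edgeR adjusted p = 0.0993). Of 12 mediators, which carry the signal from sensors to effector kinases, 1 rose, 0 fell and 7 had an unadjusted p under 0.05. The conditions did not overlap for 8 of the 12 (66.7%, against 28.8% of all genes tested), with 3 above and 5 below the scramble libraries. The gene that rose was *H2AX*, the histone variant that *ATM* and *ATR* phosphorylate, with 134, 102 and 131 CPM in the scramble and 183, 163 and 176 CPM in the siRNA libraries. Its conditions did not overlap and its log2 fold change was 0.51 (95% interval 0.22 to 0.80, adjusted p = 0.0438). The call on *H2AX* was lost with an offset for GC content (0.36, adjusted p = 0.104) and with one for exon length (0.46, adjusted p = 0.0557), and in 5 of 6 fits with 1 library left out (0.40 to 0.58, adjusted p from 0.0705 to 0.183), all but the one without the first siRNA library. *CLSPN*, the adaptor through which *ATR* activates CHK1, is named here after its values were seen, with 23.0, 22.9 and 16.9 CPM against 65.0, 36.1 and 26.1 CPM. All of its siRNA libraries were higher, with a wide spread, and it missed the threshold in edgeR (0.99, adjusted p = 0.0534) but passed it in DESeq2 (adjusted p = 0.00822). Unlike *H2AX*, it was not followed under the offsets or with libraries left out. Values in the other direction, also named after they were seen, were those of *BRCA1*, a repair and checkpoint factor (-0.45, edgeR adjusted p = 0.0597, DESeq2 adjusted p = 0.0569), and of *MRE11*, the nuclease of the complex that senses DNA ends (-0.62, edgeR adjusted p = 0.0824). *TIMELESS* (-0.41, edgeR adjusted p = 0.102) and *TIPIN* (-0.49, adjusted p = 0.181), which form a complex at the replication fork, were below 0 as well. The siRNA libraries lay below the scramble libraries for each of these 4 genes, and none passed in either tool. In DESeq2 the adjusted p was 0.103 for *MRE11*, 0.101 for *TIMELESS* and 0.341 for *TIPIN*. Of the 6 tested PIKK kinases and chaperones, the relatives of *ATM* and *ATR* and the factors that fold them, 0 passed in either tool and 2 had an unadjusted p under 0.05. *PRKDC*, the catalytic subunit of DNA-PK, had the smallest p of them (0.42, edgeR adjusted p = 0.123), and it passed without the third siRNA library (0.56, adjusted p = 0.0361).

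Of the 5 TLK partners, 1 fell. *CHAF1B*, a subunit of the CAF-1 complex that places histones on newly made DNA, was at 100.2, 102 and 106 CPM in the scramble and 50.0, 64.9 and 61.2 CPM in the siRNA libraries. The conditions were far apart, and the log2 fold change was -0.81 (standard error 0.13, edgeR adjusted p = 0.00569). The direct TLK substrates *ASF1A* (-0.09, adjusted p = 0.792) and *ASF1B* (0.03, adjusted p = 0.931) did not pass. *CHAF1A*, the other CAF-1 subunit listed, was at -0.39 (adjusted p = 0.237).

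Downstream, 2 of 7 CDKs and cyclins fell, 6 of the 7 were below 0 and 5 had an unadjusted p under 0.05. *CCNB2*, a mitotic cyclin, was at 85.2, 92.6 and 99.8 CPM in the scramble and at 53.5, 53.2 and 52.7 CPM in the siRNA libraries. The siRNA libraries lay close to each other and well below the scramble libraries, and the log2 fold change was -0.80 (standard error 0.12, edgeR adjusted p = 0.00505). *CCNA2*, the cyclin of S phase and early mitosis, fell from 123 to 83.7 CPM in the mean (-0.55, adjusted p = 0.0316). *CDK1*, the kinase that *WEE1* and the CDC25 phosphatases act on, is named after its values were seen. It was at 84.0, 89.8 and 91.0 CPM against 58.2, 64.3 and 72.2 CPM, without overlap, and missed the threshold in edgeR (-0.44, adjusted p = 0.0612) but passed it in DESeq2 (adjusted p = 0.0426). The gene above 0 was *CCNE2*, also named after its values were seen, a cyclin of the start of S phase, with 11, 17 and 2 counts against 32, 19 and 18 (1.18, edgeR adjusted p = 0.0956, DESeq2 adjusted p = 0.191). *CDK1* and *CCNE2* were not followed under the offsets or with libraries left out. None of the 4 mitotic entry kinases passed in either tool, and 1 had an unadjusted p under 0.05, which was *AURKA* (-0.41, edgeR adjusted p = 0.187).

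Of 7 proteins of the 14-3-3 family, which bind phosphorylated CDC25 and keep it from its targets, 1 fell. *YWHAE* was at 356, 300.5 and 483 CPM in the scramble and at 225, 169 and 144 CPM in the siRNA libraries, without overlap. Its log2 fold change was -1.08 (standard error 0.19, edgeR adjusted p = 0.00785). The other 6 ranged from -0.18 for *SFN* to 0.32 for *YWHAZ*. In the turnover and reset list, the ligase subunits and phosphatases that end the response, 0 of 6 passed in either tool and 1 had an unadjusted p under 0.05, which was *PPM1D* (-0.44, adjusted p = 0.22). In the p53 arm 0 of 4 passed in either tool and 0 had an unadjusted p under 0.05, with the smallest p for *MDM2*, the ligase that degrades p53 (0.24, adjusted p = 0.383). *CDKN1A*, the p53 target that inhibits CDKs, was at 0.14 (adjusted p = 0.512).

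Among the 9 E2F and DREAM regulators, which set the transcription of many cell cycle genes, 2 fell. *MYBL2*, an activator of late cell cycle genes, was at 75.9, 87.3 and 80.1 CPM in the scramble and at 56.7, 47.3 and 44.4 CPM in the siRNA libraries, without overlap (-0.72, edgeR adjusted p = 0.011). *E2F4*, mainly a repressor, fell from 236 to 161 CPM in the mean (-0.56, adjusted p = 0.0259). *FOXM1* was low, at 0.605 to 2.22 CPM. With 1 library left out, *CHAF1B*, *CCNB2* and *YWHAE* passed in 6 of 6 fits and *MYBL2* in 4. *MYBL2* lost its call without the second scramble library (-0.65, adjusted p = 0.0752) and without the second siRNA library (-0.68, adjusted p = 0.0537). *CCNA2* and *E2F4* passed in 2 of 6 and lost theirs without any 1 of the scramble libraries and without the second siRNA library, at -0.58 to -0.53 for *CCNA2* (adjusted p from 0.0909 to 0.115) and -0.63 to -0.47 for *E2F4* (adjusted p from 0.0556 to 0.134).

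**Figure D5:**
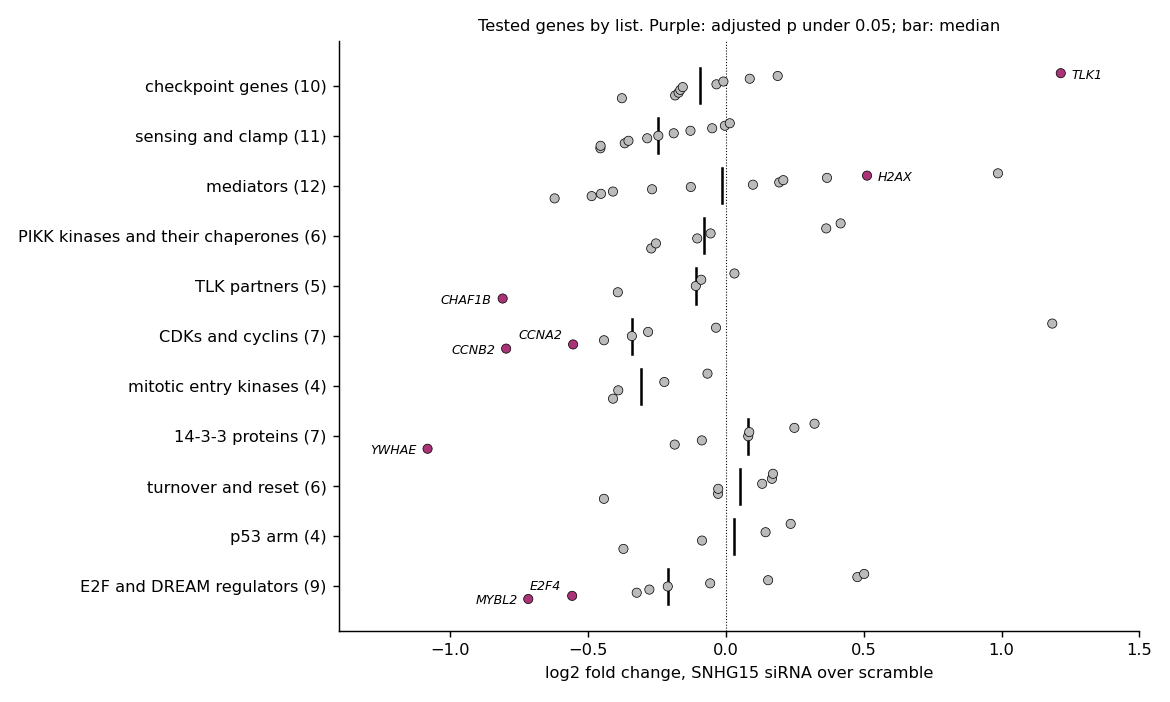
Log2 fold change (x axis, siRNA over scramble) of every tested gene in the list of 10 checkpoint genes and in the 10 partner lists, with the number tested in parentheses. Purple points are past the adjusted p of 0.05 and black bars are medians; most points past the threshold lie to the left, and *TLK1* and *H2AX* lie to the right.

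Promoter sequences, where available, of the 10 genes and of the partner genes that passed the test were searched for the letters of short motifs, as a description. RefSeq windows from 250 bases before to 50 after a start site (GRCh38.p14, a different build from that of the files) were found for 8 of the 10 genes. *TLK1* and *WEE1* had no window, so their promoters were not searched. The E2F letters TTTCCCGC, TTTCGCGC, TTTGCCGC and TTTGGCGC, sought on both strands, occurred in 3.31% of 35116 windows and in any window of 3.99% of genes. Among the 8 genes they occurred in the window of *CDC25A*. The CHR letters TTTGAA, sought on both strands, occurred in 15.2% of windows and in any window of 18.2% of genes. Among the 8 genes they occurred in 2 of 4 windows of *CDC25C*, 1 of 2 of *ATM* and 1 of 6 of *TLK2*. The letters CCAAT, also sought on both strands, occurred in 34.6% of windows and in any window of 39.7% of genes. Among the 8 genes only *ATR* had no window with them. Stretches of 80 bases around the E2F or CHR letters are printed in the direction of transcription with those letters in capitals, at chr3:48188418-48188497 (minus strand) for *CDC25A*, chr5:138331792-138331871 (minus strand) for *CDC25C* and chr15:59105080-59105159 (plus strand) for *CCNB2*. The capitals begin 44, 30 and 29 bases before the start site, and in the printed stretches the E2F and CHR letters do not overlap.
CDC25A: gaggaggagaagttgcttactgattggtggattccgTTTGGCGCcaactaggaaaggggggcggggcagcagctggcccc
CDC25C: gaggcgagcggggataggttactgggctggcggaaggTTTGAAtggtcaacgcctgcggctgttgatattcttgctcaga
CCNB2: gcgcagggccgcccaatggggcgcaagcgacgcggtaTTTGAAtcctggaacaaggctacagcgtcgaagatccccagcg

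In the printed window of *CDC25C* the CHR letters stand at nearly the same distance from the start as in *CCNB2*. From another start site of *CDC25C* the same letters begin at base 44 after the start, so the likeness depends on the window. The log2 fold change was -0.18 (95% interval -0.60 to 0.23) for *CDC25C* and -0.80 (95% interval -1.06 to -0.53) for *CCNB2*, and these intervals overlap in part. *H2AX*, which rose, also holds the CHR letters in its window. The windows of *CHAF1B*, *CCNA2*, *YWHAE*, *E2F4* and *MYBL2*, which fell as *CCNB2* did, do not hold these letters. A match is a description of letters and not evidence of binding.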

How the data were processed

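RNA of 3 scramble and 3 *SNHG15* siRNA libraries of LoVo cells was made with the TruSeq Stranded mRNA kit and sequenced on an Illumina NextSeq. The authors deposited unnormalized counts of reads per gene. The study's methods name bowtie2 and hg19, the submitters' processing notes STAR, featureCounts and hg19; versions, annotation and the handling of strand and of multiply placed reads are not given in the sources used here. The labels name TRIzol for extraction and the study's methods another kit.

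The 3 siRNA libraries were compared with the 3 scramble libraries by the quasi-likelihood test of edgeR 4.0.16 (R 4.3.3), after filterByExpr (minimum count 10, total 15) and TMM scaling, with no blocking factor. The filter kept 12507 genes of 63677, or of the 23675 that had any count. The call was set at an adjusted p under 0.05 (Benjamini-Hochberg over all genes tested). The steps were also run on simulated counts drawn without GC effects or library effects other than library size. That run does not cover the dependence on libraries and GC content seen here. Library totals lay between 3446922 and 10256710. Libraries of a condition differed beyond sampling noise (chi-square over its degrees of freedom 4.05 to 18.5).

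The members and lists were chosen by name, with earlier results of these data known. Named genes were the 10 members, *SNHG15*, pseudogenes of members, partner genes past the threshold, the gene with the smallest p in each partner list and the 5 genes most like *TLK1*. Others named beside their list, and the extra cell markers, were chosen after their values were seen. Positions and transcripts came from GENCODE release 44 on GRCh37, promoters from RefSeq. Of the identifiers, 8012 had no entry in that annotation. Other settings tried were DESeq2 1.42.0 (Wald test, no prior), upper-quartile or RLE factors, all genes with a count, only genes with 10 counts in each library, loess offsets (span 0.3) for exon length or GC content, a replicate block alone or with the GC offset, and each library omitted in turn. Intervals from counts cover counting error only.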

Additional observations from a re-analysis of the deposited data

How the results depend on the processing

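Of the 10 checkpoint genes, *TLK1* alone passed the threshold in each of the 9 fits with all 6 libraries, and leaving out 1 library gave 0 to 1 of 10. No other of the 10 genes passed in any of the 15 alternatives. Signs near 0 turned. *TLK2* was at 0.031 with upper-quartile factors, 0.015 with at least 10 counts in every library and 0.0079 with the GC offset, and from -0.078 to 0.075 with 1 library left out. *CDC25B* was at 0.0034 with upper-quartile factors and from -0.19 to 0.068 with 1 library left out. *ATR* was at -0.0015 with the exon length offset and from -0.017 to 0.24 with 1 library left out.

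Without a filter, 1312 genes (685 higher, 627 lower) and 11 partner genes passed, against 671 (392 and 279) and 7. With 1 library left out, 139 to 812 genes and 3 to 10 partner genes passed. The division into higher and lower was 515 and 230 with upper-quartile factors and 430 and 522 with the GC offset. DESeq2 gave 381 and 380. The cause of these shifts was not tested. With the replicate number as a replicate block, 543 genes, 1 of the 10 genes and 8 partner genes passed, and 787, 1 and 9 with the GC offset added. The deviations of same-numbered libraries from the mean of their condition had correlations of -0.0703, 0.155 and -0.0417. Counting noise enters these values, so they cannot tell whether same-numbered libraries were handled together. The labels do not say. Among the 10 genes *TLK1* had the fewest counts, 20 to 83 per library.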

Other observations

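Other marker genes of the epithelium, chosen after their values were seen, were low as well. *CDH17*, *KRT19*, *KRT20* and *LGR5* had 0 counts in all 6 libraries. Taken singly, a library with 0 counts leaves room for an expected count of up to about 3. *ZEB1*, a transcription factor of mesenchymal cells, was at 181 ± 3.25 CPM in the scramble and 202 ± 7.47 CPM in the siRNA libraries, and *VIM*, which encodes vimentin, was at 67.7 ± 2.63 and 52.0 ± 11.3 CPM (SD, n = 3). Of the markers of other cell types, *PTPRC*, *CD3E* and *COL1A2* had at most 1 count in a library, *DCN* had 0 and *COL1A1* had 2 to 9.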
